A study of Mus musculus with 3 samples.

Results

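Mediator is the multi-subunit complex that carries signals from DNA-bound transcription factors to RNA polymerase II at promoters. Its transcripts were followed here in mouse embryonic stem cells of the E14 line (129/Ola) during a block of translation. The 30 subunit genes were chosen by symbol (Med followed by a number, with or without a final l) from the 32285 genes listed in the deposited matrices. One of them, Med22, was set against the other 29 with its level in these libraries already known, so its values are a description and carry no test.

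The cells were grown with serum and leukemia inhibitory factor and treated from 24 h after seeding. The control library came from cells given ethanol alone for 6 h. The other libraries came from cells given 250 µg/mL cycloheximide, which blocks translation elongation, in 0.007% ethanol, for 3 h or for 6 h. All 3 cultures were detached and frozen before single-cell RNA sequencing by 3' chemistry, which captures polyadenylated RNA and marks each captured molecule with a unique molecular identifier (UMI). Each group had 1 library, from 1 cell line, so no difference below has a replicate check and no test between conditions was made. No ethanol control of 3 h was among the libraries. Intervals are 95% and cover counting error only.

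Mediator has a head and a middle that contact the polymerase, a tail that contacts many activators, and the subunit Med14, which runs through all of them as a backbone. A separable kinase module holds Med12 and Med13, or their paralogs Med12l and Med13l, together with cyclin C (Ccnc) and the kinase Cdk8 or its paralog Cdk19. Several subunits fold together as pairs, among them Med11 with Med22 and Med18 with Med20 in the head, and Med7 with Med21 and with Med31 in the middle. Embryonic stem cells are known for their dependence on Mediator at the enhancers of pluripotency genes.

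Barcodes with at least 15000 UMIs and 1 to 20% mitochondrially encoded UMIs were summed in each library. This took 2187 barcodes and 111447486 UMIs in the control, 1739 barcodes and 106842407 UMIs at 3 h, and 2554 barcodes and 140321458 UMIs at 6 h. Their median depth was 43160, 51726 and 46200 UMIs in that order. Few barcodes lay near the UMI limit, with 8 to 13 per library within 1000 UMIs below it and 6 to 15 within 1000 above it. The mitochondrial limit removed 62 control barcodes, 1 at 3 h and 8 at 6 h. Mitochondrial UMIs made up 4.57% of the control, 3.51% of the 3 h and 2.94% of the 6 h library, and their part in the ratios below was not tested. The libraries shared 1 to 3 barcode sequences per pair. All 9 markers of embryonic stem cells were above 10 CPM (UMIs of a gene per 1000000 UMIs summed) in each library and summed to between 7201 and 8165 CPM. The 6 fibroblast markers summed to at most 2.48 CPM, with 3 of 6 at 0 in each library. Endoderm, mesoderm and neural markers summed to at most 10.8, 6.93 and 15.8 CPM. The 4 trophoblast markers, 1 of them at 0 throughout, summed to 8.33, 17.5 and 19.6 CPM in the control, 3 h and 6 h libraries, of which 1 gene gave 7.74, 16.8 and 18.3, and their part in the results was not tested.

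Below, values given as a row of 3 belong to the control, the 3 h and the 6 h library in that order, and a log2 ratio is to the control unless stated.

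Med22 (ENSMUSG00000015776), a small head subunit, was the member with the highest log2 ratio at 6 h. Its CPM were 14.3 (13.6 to 15.0), 42.1 (40.9 to 43.4) and 85.1 (83.6 to 86.6), from 1594, 4502 and 11939 UMIs. The intervals did not overlap, and each later library was higher. Relative to the control, Med22 stood 2.95-fold higher after 3 h (log2 ratio 1.56, interval 1.48 to 1.64) and 5.95-fold higher after 6 h (2.57, interval 2.50 to 2.65). The 6 h library was 2.02-fold above the 3 h library (1.01, interval 0.96 to 1.06). Among the 7608 genes that averaged 10 CPM or more, 96 had a higher log2 ratio than Med22 after 3 h, 42 after 6 h, and 10 between the treated libraries. Med22 made up 1.01%, 2.34% and 4.24% of all subunit UMIs.

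**Figure D1:**
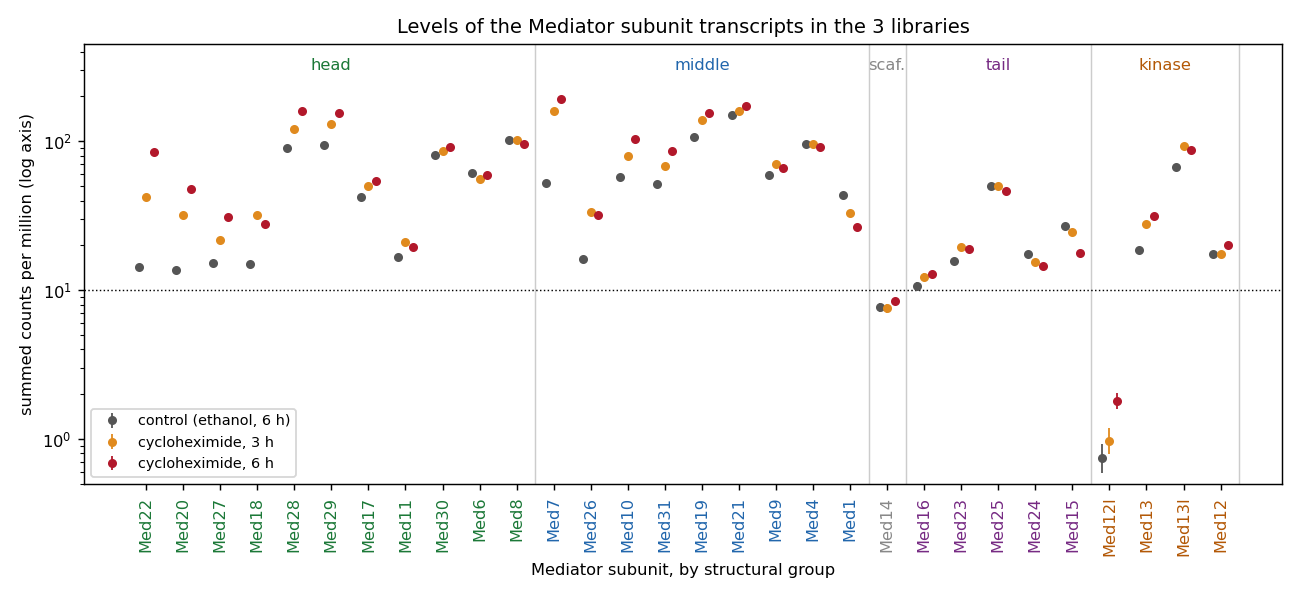
Summed CPM (log axis) of the 30 subunit transcripts, grouped by structural position and coloured by library. Points are single libraries, bars are 95% Poisson intervals, and the dotted line is the floor of 10 CPM. Med22 spans 14.3 CPM (control) to 85.1 CPM (6 h), whereas Med12l and Med14 stay under the floor.

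The floor of 10 CPM was passed by 28 of the 30 subunits. Med14, the backbone, missed it with 7.68, 7.56 and 8.40 CPM. Med12l, a kinase module paralog, had 0.745, 0.973 and 1.80 CPM, from 83, 104 and 253 UMIs. Counts and medians from here on cover the 28.

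After 3 h, 6 of the 28 subunits were at least 1.5-fold higher than in the control (13.9% of all 7608 genes) and 0 were at least 1.5-fold lower (2.13%). A 2-fold limit was passed upward by 5 (4.32%), which were Med7, Med22, Med20, Med18 and Med26, and downward by 0 (0.513%). By TMM the upward count was 3 (2.89%), without Med18 and Med26. After 6 h, 11 were at least 1.5-fold higher (22.1%) and 2 were at least 1.5-fold lower (7.79%). At least 2-fold higher were 4 (8.65%), namely Med22, Med7, Med20 and Med27, and 0 were 2-fold lower (2.41%). By TMM the 2-fold count was 3 (4.68%), without Med27. The rule drew on these values, so the counts describe the members and nothing is read from them. The 27 subunits other than Med22 had median log2 ratios of 0.31 and 0.26 for 3 h and 6 h, beside 0.11 and 0.17 for all genes.

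Where 0 lies depends on how the libraries are scaled. TMM factors, which scale by the bulk of genes, moved all log2 ratios by -0.17 for 3 h and -0.29 for 6 h, and scaling by mean UMIs per barcode moved them by 0.27 and 0.11. After 6 h, 75% of the 28 subunits lay above 0 by CPM (64.1% of all genes), 50% by TMM (40.5%) and 85.7% per barcode (71.6%). Per barcode, 14 subunits instead of 6 passed the 1.5-fold limit upward after 3 h (30.1% of all genes by the same scaling). By TMM, 6 instead of 11 passed it after 6 h (11.6%), and these were Med22, Med7, Med20, Med27, Med26 and Med18. The distance of Med22 from the median of the other subunits, on which a common scaling has no bearing, was 1.25 for 3 h, 2.31 for 6 h and 0.93 for 6 h over 3 h on the log2 scale.

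**Figure D2:**
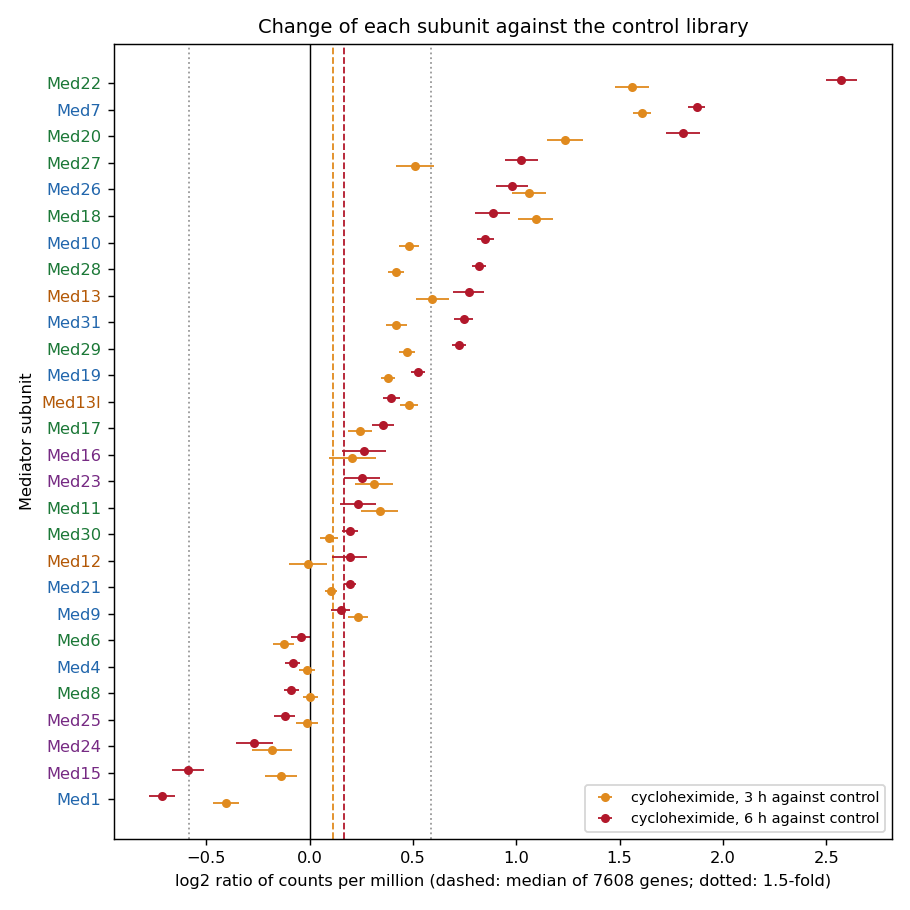
Log2 ratio of each of the 28 subunits over the floor against the control library, at 3 h (orange) and 6 h (red), with exact 95% intervals for counting error. Dashed lines mark the medians of all 7608 genes (0.11 at 3 h and 0.17 at 6 h) and dotted lines a 1.5-fold change. Med22, Med7 and Med20 stand to the right at both times and Med1 to the left.

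In the head, the 10 subunits besides Med22 had median log2 ratios of 0.38 (3 h) and 0.54 (6 h). Med20 showed 13.7 (13.0 to 14.4), 32.2 (31.1 to 33.3) and 47.8 (46.6 to 48.9) CPM. Its intervals were apart, with a log2 ratio of 1.24 after 3 h and 1.81 after 6 h. Med18, its pairing partner, showed 15.0, 32.0 and 27.7 CPM. Both partners were more than 2-fold higher after 3 h by CPM, though Med18 was under that limit by TMM (log2 ratio 0.92). From 3 h to 6 h, however, the log2 ratio was 0.57 for Med20 and -0.21 for Med18. The ratio of Med20 to Med18 UMIs, which no scaling moves, was 0.913 (0.851 to 0.979), 1.01 (0.96 to 1.06) and 1.73 (1.66 to 1.80).

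The partner of Med22 differed less between libraries. Med11 showed 16.6 (15.8 to 17.3), 21.0 (20.1 to 21.8) and 19.5 (18.8 to 20.2) CPM. Its log2 ratio was 0.34 after 3 h and 0.23 after 6 h, the latter turning to -0.05 by TMM. The ratio of Med22 to Med11 UMIs was 0.863 (0.807 to 0.923), 2.01 (1.91 to 2.12) and 4.37 (4.19 to 4.56).

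Med27, Med28 and Med29, which lie where the head meets the tail, were higher in each later library. Med27 showed 15.2, 21.6 and 30.9 CPM, with a log2 ratio of 0.51 after 3 h and 1.02 after 6 h. Med28 and Med29 had 0.42 and 0.47 after 3 h, and 0.82 and 0.72 after 6 h. The remaining head subunits were within 1.5-fold of the control at both times. Med17, a large architectural subunit, had 0.24 and 0.35, and Med30 had 0.09 and 0.20, the latter pair turning to -0.08 and -0.09 by TMM. Med6 lay at -0.13 and -0.04, which turned to 0.14 and 0.06 per barcode. Med8 lay at 0.00 and -0.09, which became -0.17 and -0.38 by TMM and 0.27 and 0.02 per barcode.

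In the middle, Med7 had a log2 ratio near that of Med22 after 3 h. It showed 52.7 (51.4 to 54.1), 161 (158 to 163) and 193 (191 to 195) CPM. The intervals were apart, but most of the difference was already present after 3 h. The log2 ratio was 1.61 after 3 h, beside 1.56 for Med22, and 1.87 after 6 h, beside 2.57. Med21, with which Med7 forms the hinge of the middle, showed 150, 161 and 171 CPM and log2 ratios of 0.10 and 0.19, which turned to -0.07 and -0.09 by TMM. The ratio of Med7 to Med21 UMIs was 0.352 (0.342 to 0.363), 1.00 (0.979 to 1.02) and 1.13 (1.11 to 1.15). Med31, which also binds Med7, had log2 ratios of 0.42 and 0.74.

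Med26, the subunit that links Mediator to elongation factors, showed 16.1, 33.6 and 31.8 CPM. Like Med18, it was about 2-fold higher after 3 h and no higher after 6 h, with a log2 ratio of -0.08 from 3 h to 6 h (-0.15 to -0.02). Med10 and Med19 had 0.48 and 0.38 after 3 h, and 0.85 and 0.52 after 6 h. Med9 had 0.23 and 0.15, the latter -0.14 by TMM, and Med4 had -0.01 and -0.08, which turned to 0.26 and 0.03 per barcode.

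Med1, the middle subunit that binds nuclear receptors, lay on the other side. It showed 43.6 (42.4 to 44.8), 32.9 (31.8 to 34.0) and 26.6 (25.7 to 27.4) CPM. Its intervals did not overlap, and its log2 ratios of -0.40 and -0.71 were the lowest of the 28 after 3 h and after 6 h, with 5.21% of all genes lower after 6 h. The sign was the same by TMM and per barcode. In barcodes between 1000 UMIs and the limit of 15000 the order differed, with 39.2 (33.1 to 46.3), 58.8 (48.6 to 70.5) and 56.1 (46.7 to 66.7) CPM. The 62 control barcodes under the mitochondrial limit, deeper on average than those used, had 7.86 CPM of Med1 (5.84 to 10.4), below every library.

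The 5 tail subunits had median log2 ratios of -0.01 (3 h) and -0.12 (6 h), the former 0.26 per barcode. At least 1.5-fold higher by CPM were 0 of them after 3 h (13.9% of all genes) and 0 after 6 h (22.1%). With 5 genes, nothing is read from these counts. Med15, a target of several activators, showed 26.9, 24.4 and 17.8 CPM. Its log2 ratio of -0.59 after 6 h (-0.67 to -0.51) lay at the 1.5-fold limit, and from 3 h to 6 h it was -0.45, the lowest of the 28. After 3 h it was -0.14, which turned to 0.13 per barcode. Med24 had -0.18 and -0.27, the former 0.09 per barcode, and Med25 had -0.01 and -0.12, the former 0.26 per barcode. Med16 and Med23 had 0.26 and 0.25 after 6 h, which turned to -0.02 and -0.03 by TMM.

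In the kinase module, Med13, which tethers the module to the core, showed 18.5, 28.0 and 31.6 CPM. Its log2 ratio was 0.59 after 3 h (0.51 to 0.68), at the 1.5-fold limit, and 0.77 after 6 h. Its paralog Med13l showed 66.8, 93.3 and 87.8 CPM, and the ratio of Med13l to Med13 UMIs was 3.61 (3.44 to 3.79), 3.34 (3.20 to 3.48) and 2.78 (2.69 to 2.88). Med12, which activates the kinase, had log2 ratios of -0.01, or 0.26 per barcode, after 3 h and 0.19, or -0.09 by TMM, after 6 h. UMIs of Med12l per UMI of Med12 were 0.0423 (0.0335 to 0.0527), 0.0556 (0.0452 to 0.0678) and 0.0895 (0.0784 to 0.102). The enzymes of the module are not subunits by the rule. Cdk8 showed 28.5, 22.8 and 22.1 CPM, Cdk19 4.15, 3.60 and 5.99, and Ccnc 37.3, 36.7 and 42.2.

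From 3 h to 6 h, 1 of the 28 subunits was at least 1.5-fold higher (1.74% of all genes), which was Med22, and 0 were at least 1.5-fold lower (2.52%). Med22 lay at the 2-fold limit by CPM (passed by 0.145%), with an interval of 0.96 to 1.06 that spans it, and under it by TMM (0.90) and per barcode (0.85), while 0 were 2-fold lower (0.657%). Above 0 lay 16 of the 28 (57.7%), 11 by TMM (38.1%) and 10 per barcode (30.4%). The median of the 27 others was 0.08, beside 0.04 for all genes. After Med22 with 1.01, the highest log2 ratios were those of Med20 (0.57), Med27 (0.52) and Med28 (0.40), and the lowest those of Med15 (-0.45), Med1 (-0.31) and Med18 (-0.21). Both comparisons with the control share its 1 library, and the treated libraries also enter the comparison with each other.

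**Figure D3:**
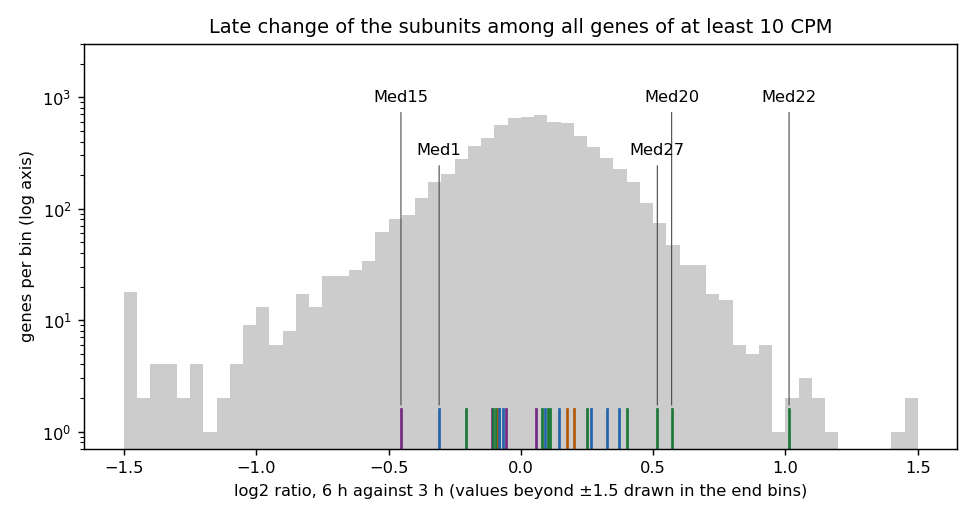
Distribution of the log2 ratio between 6 h and 3 h over 7608 genes (grey, log axis of genes per bin), with a tick for each of the 28 subunits coloured by structural group (green head, blue middle, purple tail, brown kinase module). Med22, at 1.01, lies apart from the other subunits, which range from -0.45 to 0.57.

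Med22 lies on chromosome 2 (GRCm38, 26905262 to 26910677, minus strand) in the surfeit cluster, a tight group of housekeeping genes. Rpl7a, a ribosomal protein gene, starts on the other strand with 86 bases between the annotated starts, so they are a divergent pair. Rpl7a showed 1966, 1918 and 2018 CPM, log2 ratios within 0.04 of 0 by CPM, which TMM factors moved by -0.17 and -0.29. UMIs of Med22 per UMI of Rpl7a were 0.00727, 0.0220 and 0.0422. On the far side of Med22, Surf6 had log2 ratios of 0.87 and 0.69. Surf1 had 0.43 and 0.84, and Surf2 had 0.55 and 0.80. Surf4, near the control level by CPM, had -0.05 and -0.06, which became -0.23 and -0.35 by TMM and 0.22 and 0.04 per barcode. Each of the 5 neighbours lay below Med22 after 3 h and after 6 h. No gene listed in the matrices overlaps Med22.

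**Figure D4:**
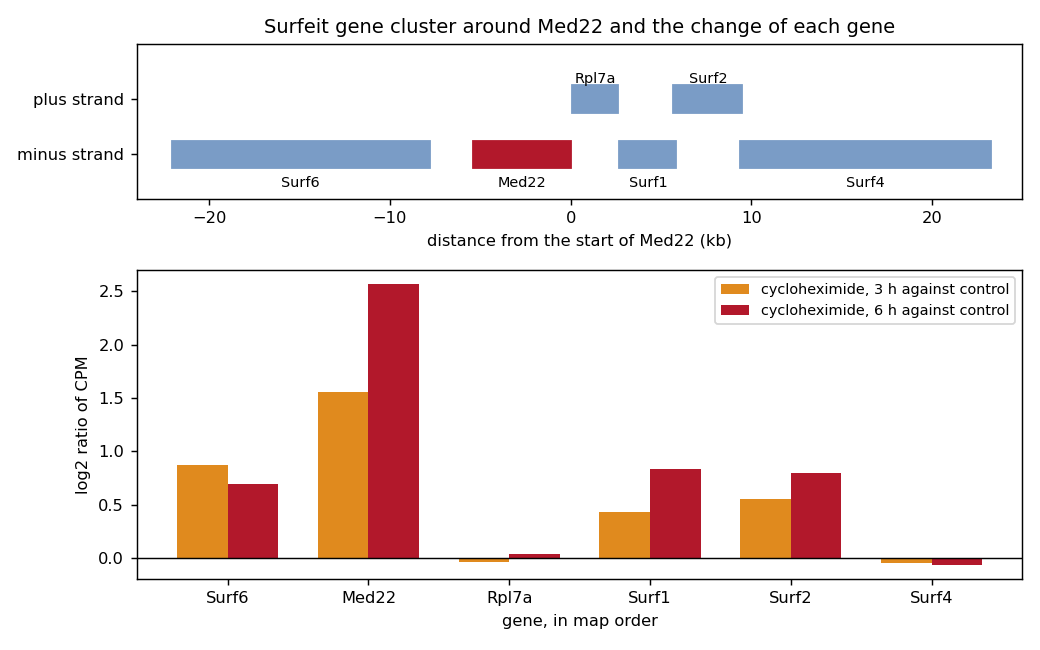
Upper panel, position of the surfeit genes by strand, in kilobases from the start of Med22 (red). Lower panel, log2 ratio of each gene against the control at 3 h (orange) and 6 h (red), where Med22 reaches 2.57 and its divergent neighbour Rpl7a 0.04.

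GENCODE M21 lists 3 transcripts of Med22. Transcript 201 has 4 exons, 200 codons and a last exon of 406 bases, and transcript 202 has 3 exons, 140 codons and a last exon of 3040 bases. The ends of these 2 lie close together, at 26905588 and 26905262. Transcript 203, with 3 exons and no annotated stop codon, ends apart from them at 26908109. The counts are per gene, so the transcripts cannot be told apart here.

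Sequence upstream of the 3 subunits with the highest log2 ratios after 6 h is shown to set them side by side. It was taken from the 250 bases before each start in RefSeq on GRCm38.p6, an entry that 26 of the 30 subunits had, and is printed on the strand of the gene for the longest stretch that GENCODE gives to no exon. Capitals mark any of 7 short motifs searched on both strands: the GC box GGGCGG, the ETS core CCGGAA, the CCAAT box CCAAT, the YY1 core AAGATGG, the cyclic AMP element core TGACGT, the NRF1 motif core TGCGCA and the TATA box TATAAA. Marked stretches do not overlap. The stretch for Med22 is chr2:26910678-26910763 on the minus strand, the 86 bases between Med22 and Rpl7a.
Med22: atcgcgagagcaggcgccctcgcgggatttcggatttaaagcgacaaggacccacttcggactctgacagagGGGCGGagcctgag
For Med7 it is chr11:46436697-46436924 on the plus strand.
Med7: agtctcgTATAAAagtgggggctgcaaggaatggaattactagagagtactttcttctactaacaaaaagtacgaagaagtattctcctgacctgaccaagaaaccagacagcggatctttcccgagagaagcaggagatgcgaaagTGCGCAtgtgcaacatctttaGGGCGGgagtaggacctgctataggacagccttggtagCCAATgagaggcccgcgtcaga
For Med20 it is chr17:47611493-47611581 on the plus strand.
Med20: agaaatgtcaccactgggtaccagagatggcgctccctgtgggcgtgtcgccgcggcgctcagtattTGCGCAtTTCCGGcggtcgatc

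Over the whole 250 bases, the GC box is held by each of these 3 genes, by 16 of 26 subunits and by 32.9% of 27025 genes. In the Med20 window it lies in an exon of Bysl, and in the Med22 window a further copy lies in an exon of Rpl7a. The YY1 core is held by Med22 alone of the 3, by 4 of 26 subunits and by 4.53% of all, and in the Med22 window it lies in an exon of Rpl7a. The NRF1 core is in Med7 and Med20, in 6 of 26 and in 6.66%. The CCAAT box is in Med7, in 10 of 26 and in 34.5%. The ETS core, in Med20, is in 6 of 26 and 12.2%. The cyclic AMP element core, in Med20 within an exon of its neighbour Bysl, is in 4 of 26 and 6.56%. The TATA box, in Med7, is in 3 of 26 and 13.0%. These matches are a description of letters and not of binding sites.

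The 30 subunit genes lie on 17 chromosomes, 7 of them on chromosome 11, and 0 overlap a gene of the same strand listed in the matrices. On the opposite strand 9 overlap one, and whether counting used strand is not given in the sources used here. The 11 subunits at least 1.5-fold higher after 6 h mostly have few exons, with a median of 4 (3 to 30) in the transcript with most exons, and 10 of 11 have at most 8. The other 17 have a median of 12 (2 to 46), and 8 of 17 have at most 8. GENCODE annotates a transcript subject to nonsense-mediated decay for 0 of the 11 and for 5 of the 17, which are Med15, Med21, Med23, Med24 and Med25. A transcript with a retained intron is annotated for 6 of the 11 and for 12 of the 17. Med12l, under the floor, is in neither set. It was 2.41-fold higher after 6 h and has 44 exons and 1 transcript subject to nonsense-mediated decay. These features describe sets made by the measured ratio by CPM, and by TMM 6 subunits pass the limit. Shares of these features over all genes were not counted, so nothing is read from the contrast.

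When the barcodes of each library were split into 3 equal parts by total UMIs, Med22 was higher in the treated libraries in every part. The parts divide the barcodes summed above, so they give no further support. They were cut within each library and do not match in depth, with the deepest part starting at 54353, 65107 and 56584 UMIs. The control showed 15.9, 12.3 and 14.8 CPM of Med22 from the shallowest to the deepest part. The 3 h library showed 39.7, 41.8 and 43.1 CPM and the 6 h library 82.5, 88.4 and 84.2 CPM. The log2 ratio of the 6 h library in these parts was 2.38 (2.21 to 2.55), 2.84 (2.69 to 3.00) and 2.51 (2.40 to 2.61). For Med7 it ran from 1.79 to 1.91, for Med20 from 1.76 to 1.84 and for Med1 from -0.74 to -0.62.

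Each barcode was also thinned to 15000 UMIs, which left out none. A Med22 UMI was then found in 19.7% (18.0 to 21.4, exact Clopper-Pearson), 43.6% (41.3 to 46.0) and 68.7% (66.8 to 70.5) of barcodes. Barcodes with 3 or more made up 0.183%, 2.99% and 13.9%. Without thinning the shares were 48.9%, 83.8% and 95.3%. The variance of the count divided by its mean was 1.01, 1.08 and 1.12 when thinned, which draws this ratio toward 1 for any gene of low counts, and 1.22, 2.11 and 2.73 without thinning, where the depths of the barcodes also differ. Shares for Med7 were 53.1%, 89.5% and 92.6%, for Med20 18.3%, 38.8% and 51.2%, and for Med1 46.5%, 39.2% and 33.0%.

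**Figure D5:**
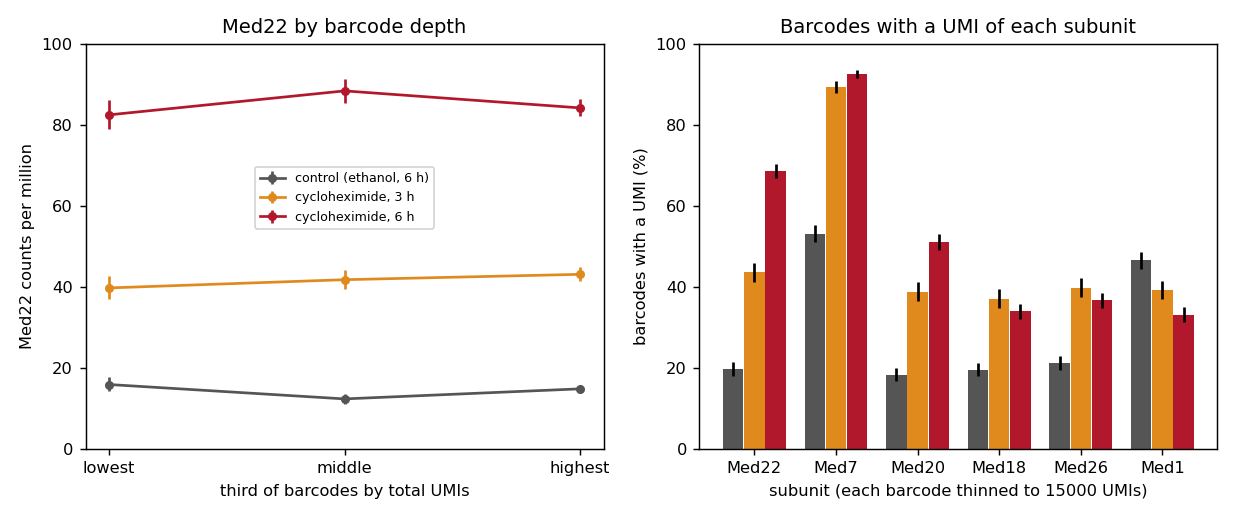
Left, Med22 CPM in 3 equal parts of the barcodes of each library ordered by total UMIs, with 95% Poisson intervals. Right, share of barcodes thinned to 15000 UMIs that hold a UMI of each subunit, with exact 95% intervals. Bars are the control, 3 h and 6 h libraries from left to right, and the Med22 share goes from 19.7% to 68.7%.

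Barcodes with 10 to 100 UMIs, taken as free RNA, gave the same order for Med22, with 17.5 (13.5 to 22.4), 44.8 (37.9 to 52.6) and 80.1 (71.5 to 89.4) CPM. No cell type that lacks the gene was at hand, and the shares above are of barcodes with a UMI rather than of expressing cells.

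Among 5568 further genes that averaged 20 CPM or more, those with the smallest distance to Med22 on the pair of log2 ratios for 3 h and 6 h were Trit1, Eprn, Arf2, Gm47283 and Relb, at distances of 0.18 to 0.36. This likeness rests on 2 values per gene from 3 libraries. In the control, Trit1, Eprn, Arf2 and Relb had 11.5, 14.1, 6.11 and 6.91 CPM. They reached the average of 20 CPM only through the treated libraries. Trit1, which modifies transfer RNA, showed 11.5, 37.3 and 63.2 CPM. Relb, a subunit of the NF-kappaB family, showed 6.91, 25.6 and 37.5 CPM. From 3 h to 6 h the log2 ratios of the 5 ran from 0.55 to 0.76, beside 1.01 for Med22.

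Other transcription machinery was counted over lists chosen for their role, beside 22.1% of all genes at least 1.5-fold higher and 7.79% lower after 6 h by CPM, and 11.6% and 16.9% by TMM. Of 18 general transcription factor genes, 5 were higher and 0 lower by CPM, with a median log2 ratio of 0.34. Ercc2, a helicase of TFIIH, was highest at 1.11. Its CPM were 7.01, 12.3 and 15.2, so it passed the floor of 10 CPM only through the treated libraries. By TMM 1 was higher and the median was 0.05. Of 12 TFIID genes over the floor, 3 were higher and 0 lower, with a median of 0.24 and Taf13 highest at 1.19, and by TMM 1 was higher with a median of -0.05. Of 13 RNA polymerase II subunit genes, 3 were higher and 2 lower, with a median of 0.27, from Polr2l at -0.70 to Polr2d at 0.93. By TMM 1 was higher and 2 lower, with a median of -0.02. Among 17 elongation factor genes, 4 were higher and 1 lower, with a median of 0.40, and by TMM 0 were higher and 1 lower, with a median of 0.12. The 7 genes of cohesin and its loader, which act with Mediator at enhancers, had a median of -0.06, which was 0.05 per barcode and -0.35 by TMM. By CPM 1 of them, Rad21, was at least 1.5-fold lower, at -0.89, and by TMM 3 were. The highest log2 ratio after 6 h in these 5 lists was 1.19, beside 2.57 for Med22, 1.87 for Med7 and 1.81 for Med20.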

How the data were processed

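Single-cell RNA libraries of 3 cultures were analysed. The authors deposited unnormalized UMI counts by gene and barcode. Cell Ranger 4.0.0 and the mm10 build are named per the submitters' processing notes; the annotation release and strand setting are not given in the sources used here. Each matrix listed 6794880 barcodes, so cells had not been called. Barcodes with at least 15000 UMIs and 1 to 20% mt- UMIs were kept, with no doublet removal, and counts were summed per library and expressed as CPM. Total counts per library were 115188502 to 150987519. Log2 ratios used a prior of 0.5 counts. Intervals are exact Poisson (CPM), exact conditional binomial (ratios) and Clopper-Pearson (shares). The ratio intervals were run on simulated Poisson counts, the model they assume. This checks the code and not the spread between barcodes or cultures. No test between conditions was made. Positions are from GENCODE M21 on GRCm38, matched by identifier.

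The members, lists and tests were chosen with earlier results of these data known. All members are reported; Med22 and the 3 highest and 3 lowest others of each comparison are named in each, and the remaining members by structural group. Alternatives were TMM factors (edgeR 4.0.16, R 4.3.3), mean UMIs per barcode, other floors, a prior of 5 counts, other limits on barcodes and subtraction of free RNA. Python 3.11.15, numpy 2.4.6, scipy 1.17.1, pandas 2.3.3 and matplotlib 3.10.9 were used.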

Additional observations from a re-analysis of the deposited data

Results flagged for a closer look

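Barcodes between 1000 UMIs and the limit of 15000, which the comparisons of libraries did not use, carried Med22 above the control level. Med22 had 33.4 CPM (25.9 to 42.5) in 484 such barcodes at 3 h and 57.4 CPM (47.9 to 68.2) in 625 at 6 h, whereas 978 control barcodes of this depth had 13.0 CPM (9.54 to 17.3). These values rest on 66, 129 and 47 UMIs. The 6 h value lay below that of the deeper barcodes, 85.1 CPM, and the intervals did not overlap.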

How the results depend on the processing

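Every library stands alone, so the direction of small log2 ratios rests on the scaling. By TMM the log2 ratio of Med22 was 1.38 at 3 h, 2.29 at 6 h and 0.90 between 6 h and 3 h, and the median of the other subunits was 0.14, -0.023 and -0.030. Per barcode Med22 had 1.83, 2.68 and 0.85, and the others 0.58, 0.37 and -0.080. The distance between them was 1.25, 2.31 and 0.93. It ranged from 1.19 to 1.28, from 2.25 to 2.34 and from 0.92 to 0.98 over the main setting and the alternatives that keep Med22. The floor of 50 CPM leaves Med22 out. TMM and per-barcode scaling, which are among the alternatives, cannot move this distance, so its range comes from the other settings. Upward counts at 1.5-fold were 6 by TMM at 6 h (11.6% of all genes) and 14 per barcode at 3 h (30.1%). Downward counts at 6 h were 1 instead of 2 per barcode (418 of 7608 genes). The count was also 1 with a limit of 2000 UMIs and with no mitochondrial limit. In each case this is because Med15 lies at the 1.5-fold limit. Between 6 h and 3 h, 1 subunit was lower per barcode (402 of 7608 genes). With no floor and with 10% free RNA subtracted, 2 were higher. A floor of 50 CPM gave 1, 5 and 0 higher at 3 h, 6 h and 6 h against 3 h, and 0 lower at 6 h. The median of the others at 6 h was then 0.39. For the floor of 50 CPM, no floor, the barcode limits and free RNA subtraction, shares over all genes were not counted. Nothing is read from the counts under those settings. Thinning to 10000 UMIs gave Med22 shares of 11.9%, 34.0% and 56.3% in the control, 3 h and 6 h libraries, and no thinning 48.9%, 83.8% and 95.3%. The causes of other shifts were not tested. No paired analysis was possible because each group had 1 library, and no replicate could be left out.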

Other observations

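At 15000 UMIs a barcode held UMIs of a median of 13 of the 30 subunits in the control library (quartiles 11 and 15), 15 in the 3 h library (13 and 17) and 16 in the 6 h library (14 and 17), with a median of 21, 27 and 30 subunit UMIs. Summed over the 30 genes, Mediator transcripts showed 1410, 1803 and 2009 CPM in these libraries, and 1396, 1761 and 1923 CPM without Med22. Per barcode the sums were 71.9, 110.8 and 110.4 UMIs, and 71.1, 108.2 and 105.7 UMIs without Med22. By that measure the 6 h library was not above the 3 h library. The 62 control barcodes with under 1% mitochondrial UMIs, left out of the sums, were near the control barcodes used for some subunits and not for others. They held 6357765 UMIs, beside 111447486 in the 2187 barcodes used, so they were deeper on average. The part of this depth was not tested. Med22 showed 13.5 CPM there (10.8 to 16.7), Med7 50.5 and Med20 11.6, next to 14.3, 52.7 and 13.7 in the barcodes used. Med18 showed 7.08 CPM (5.16 to 9.47), Med26 7.39 (5.43 to 9.83) and Med1 7.86 (5.84 to 10.4), next to 15.0, 16.1 and 43.6, with intervals that did not overlap.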
